A study of Mus musculus with 2 samples.

Results

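Replication-dependent histone genes encode the proteins around which DNA is wrapped (H2A, H2B, H3 and H4) and the linker histone H1, which binds between nucleosomes. Most copies lie in clusters, lack introns and are transcribed in S phase, when new DNA has to be packed. Their mRNAs usually end in a stem-loop in place of a poly(A) tail, and the stem-loop is bound by SLBP, which serves processing, translation and decay of the mRNA. Some copies are also made with a poly(A) tail, mainly in cells that have left the cell cycle.

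The histone genes are described here in 2 samples of TR1 cells (IL-10-producing CD4 T cells) from the small intestine of mice injected with anti-CD3, an antibody that activates T cells. The wildtype sample had normal IL-10 receptors, and the impaired sample came from CD4-DNIL-10R transgenic mice, whose T cells carry a dominant-negative IL-10 receptor under Cd4 control. Both groups received 15 μg of antibody (clone 2C11) into the peritoneum 2 times and were killed 4 or 48 hours after the last dose; which time applies to which sample, the number of mice and the sort are not stated. RNA was primed with oligo(dT), which pairs with poly(A) tails, and each sample was measured on 1 Affymetrix array, so no difference could be tested and none is given with an error.

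Members were the probe sets annotated to exactly 1 gene whose former symbol begins with Hist1h, Hist2h, Hist3h or Hist4h. The annotation carries the current symbols (H2bc4 for Hist1h2bc), 0 of which match the old pattern, so former names were read from RefSeq synonyms through the Entrez identifier. This gave 31 genes of the 19937 on the array, each with 1 probe set: 5 for H1, 5 for H2A, 11 for H2B, 3 for H3 and 7 for H4. RefSeq listed 70 genes with such names, so 39 had no probe set of their own. Of those, 38 were listed only on probe sets shared with other genes, and 1 was on none. A further 21 probe sets were shared among histone genes of the rule alone and are given separately. Of the members, 30 are protein coding and H2bu1-ps is a transcribed pseudogene. Histone copies are nearly identical in sequence, and 19 members also appear on a shared probe set, so the signal of any single copy is uncertain.

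The samples carried the markers of their label on both arrays. Il10 stood at 12.94 in wildtype and 12.92 in the impaired sample, Lag3 at 11.41 and 11.36, and Cd4 at 13.14 and 13.18. These values are log2 RMA expression, the unit of every level below. Il10ra, the ligand-binding chain of the receptor, was at 9.92 and 12.30. Whether its probe set also reads the transgene was not tested. Some markers of other cells were brighter than Lag3. Muc2, a goblet cell gene, was at 12.03 in wildtype and 12.92 in the impaired sample, and Krt8, of the enterocyte list, at 11.74 and 12.55. B cell and neutrophil genes were dimmer, with wildtype medians of 6.27 and 6.93. Levels below are therefore those of whole samples and cannot be given to TR1 cells alone. Markers of other intestinal cells differed between the arrays. The medians of their log2 differences (impaired minus wildtype, as throughout) were 0.96 for enterocyte genes (14 of 14 above 0), 0.94 for goblet and Paneth cell genes (9 of 9 above), 1.68 for neutrophil genes (10 of 12 above), 0.41 for B cell genes (7 of 7 above), 0.39 for crypt cell genes (5 of 6 above, with Olfm4 at 2.01), 0.165 for plasma cell genes (5 of 7 above) and -1.58 for pancreatic acinar genes (9 of 10 below). In such bulk samples, fewer cells of a type and less RNA per cell cannot be told apart.

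Histone genes were close to equal in the 2 samples. Their median difference was 0.05, against 0.01 over all 19937 genes, and the 31 values ran from -0.24 to 0.75. The number past 2-fold was 0 in either direction, where 0.828% of all genes were at least 2-fold higher in the impaired sample and 0.191% at least 2-fold lower. H2bc4 alone was at least 1.5-fold higher, which is 1 of 31 beside 3.58% of all genes, and 0 were 1.5-fold lower, beside 1.8%. These shares do not set the histone genes apart from the rest of the array.

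More histone genes lay slightly above 0 than below it. There were 22 above, 8 below and 1 (H2bc22) at 0, where 51.5% of all genes were above and 47.6% below. Most of these differences were small: 14 of 31 lay within 0.1 of 0, where 35.1% of all genes did, and 20 within 0.2, where 62% did, which is near the members' share. There were 7 members above 0.3 and none below -0.3, beside 11.5% and 10.2% of all genes, and no test was made of these counts. Among the 18 members with a mean of at least 8.86, the 75th percentile of probe sets, 15 were above 0. Of all genes at that level 40.0% were, and these shares were not tested. Members share sequence and probes may read several copies, so the 31 genes are not 31 separate measurements. After intensity-dependent centring, 21 were above 0 and 10 below, and H2ac8, H2bc21 and H4c8 changed sign, each from a value within 0.1 of 0.

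**Figure D1:**
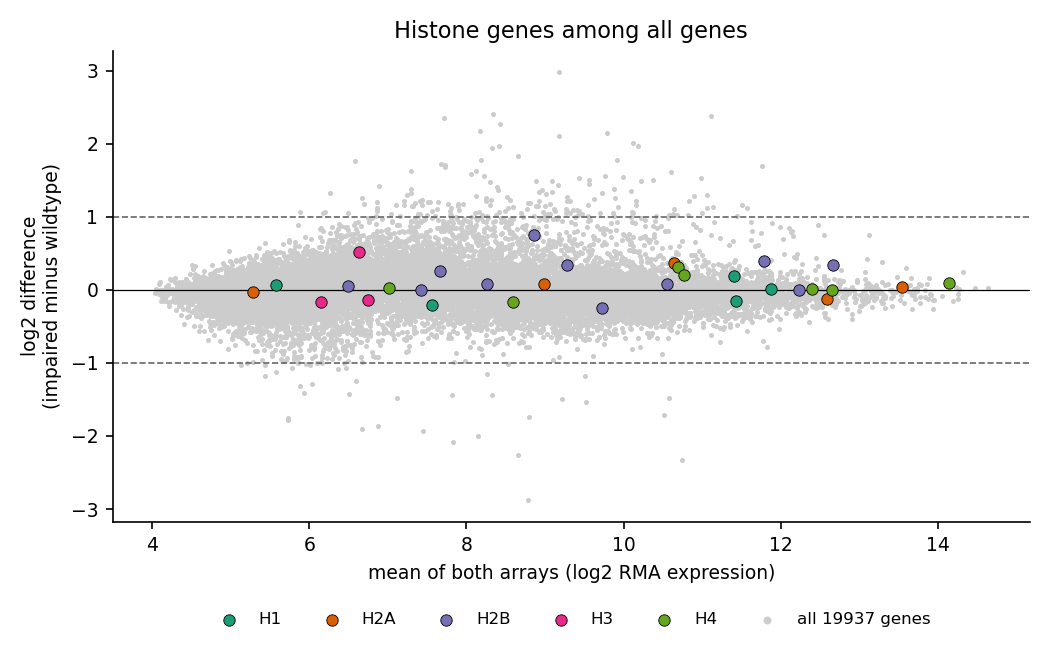
Each point is a gene, with the mean of both arrays (log2 RMA expression) on the horizontal axis and the log2 difference (impaired minus wildtype) on the vertical axis; grey points are all 19937 genes, coloured points the 31 histone genes by class, and dashed lines mark 2-fold. All 31 histone genes lie between the dashed lines, from -0.24 to 0.75.

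Levels of the histone genes covered nearly the whole range of the array. The dimmest was H2ac8, at 5.29 in wildtype and 5.27 in the impaired sample, and the brightest H4c4, at 14.09 and 14.19. Of the 31, 11 were among the brightest 5% of all genes (a mean of 11.20 or more), and 6 were below 6.91, the median over all probe sets. The median member had a mean above that of 82.6% of all genes. Probe sets differ in how strongly they bind and in how many copies they read, so these positions describe brightness and do not rank the genes by transcript number. How much of the signal came from tailed transcripts was not measured. The order of the members was nearly the same on both arrays (Spearman rho = 0.995 across the 31 genes, which share probes and arrays). Across all 34760 probe sets the rho was 0.984.

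**Figure D2:**
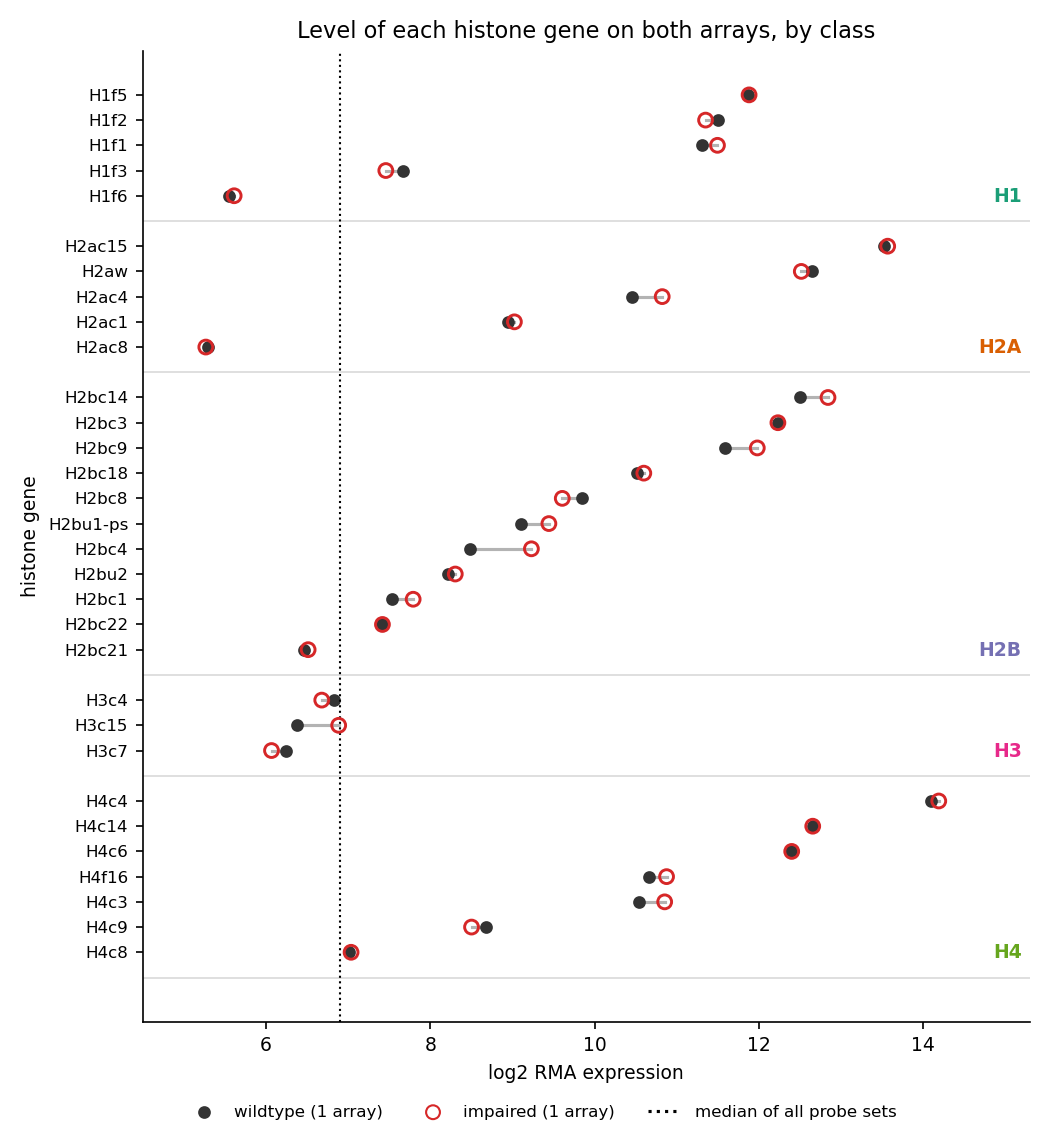
Level of each of the 31 histone genes (log2 RMA expression, horizontal axis) on the wildtype array (filled) and the impaired array (open circle), sorted by mean within the 5 classes; the dotted line is the median of all probe sets, 6.91. Members run from 5.27 (H2ac8) to 14.19 (H4c4), and the longest connecting line is that of H2bc4.

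The upstream sequences of the members carry letters that go with the class. RefSeq windows of GRCm38.p6, from 250 bases before to 50 after the start of the gene, were at hand for 26 members (not H2bc21, H2bc4, H2bu1-ps, H3c7 or H4c14). They were searched on both strands. The octamer ATTTGCAT, read by POU factors and long known from H2B promoters, was in 5 of 8 H2B and 4 of 5 H2A windows and in none of the H1, H3 and H4 windows, beside 1.74% of all 32851 windows. H2A and H2B genes often start back to back, as H2ac8 and H2bc8 do, so that 1 octamer can fall in both windows. A variant octamer, ATTTGAAT, was in 3 of 8 H2B and 1 of 5 H2A windows, beside 1.245% of all. GGTCCGC, the core read by HINFP at H4 genes, was in 5 of 6 H4 windows, 1 of 8 H2B windows and 3.16% of all. CACCAATCA, which contains the CCAAT box and was picked after the windows had been seen, was in 4 of 5 H1 windows and 0.493% of all. CCAAT itself was in 22 of 26 (37.4% of all) and TATAAA in 16 of 26 (13.6% of all).

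The stretches below show the 100 bases before the start, on the strand of the gene, with the class motif in capitals. For each class they are the brightest and the dimmest member with the motif there and the one with the largest difference, where these are different genes.
H2bc14 (H2B, chr13:21721944-21722043, plus strand): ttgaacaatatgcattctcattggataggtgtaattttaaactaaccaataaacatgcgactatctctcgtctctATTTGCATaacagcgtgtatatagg
H2bc8 (H2B, chr13:23571300-23571399, plus strand): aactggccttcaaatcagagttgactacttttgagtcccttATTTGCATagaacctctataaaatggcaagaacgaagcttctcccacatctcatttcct
H4c4 (H4, chr13:23581468-23581567, plus strand): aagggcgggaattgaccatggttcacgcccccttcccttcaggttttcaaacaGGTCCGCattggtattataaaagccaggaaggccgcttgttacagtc
H4c9 (H4, chr13:22041363-22041462, minus strand): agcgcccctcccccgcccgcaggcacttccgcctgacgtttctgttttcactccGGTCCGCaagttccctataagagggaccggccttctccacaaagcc
H4c3 (H4, chr13:23698459-23698558, minus strand): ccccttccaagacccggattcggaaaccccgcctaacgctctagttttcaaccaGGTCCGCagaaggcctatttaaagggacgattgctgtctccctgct
H1f5 (H1, chr13:21780626-21780725, minus strand): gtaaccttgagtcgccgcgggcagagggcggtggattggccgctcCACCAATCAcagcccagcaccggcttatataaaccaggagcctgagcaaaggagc
H1f6 (H1, chr13:23695711-23695810, plus strand): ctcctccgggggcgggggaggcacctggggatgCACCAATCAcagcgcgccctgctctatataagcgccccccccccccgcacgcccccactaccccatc
H1f1 (H1, chr13:23763568-23763667, plus strand): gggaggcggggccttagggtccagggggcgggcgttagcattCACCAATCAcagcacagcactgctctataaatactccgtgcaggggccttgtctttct
A match is a description of these letters and does not show binding. The octamer stood upstream of H2bc14, at a difference of 0.35, and of H2bc8, the lowest member at -0.24. GGTCCGC stood upstream of H4c3 (0.32) as well as H4c9 (-0.17), and began 46 bases before the start in both.

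Linker histones were measured by 5 genes with a median difference of 0.02, 3 above 0 and 2 below. Among all genes 51.5% were above 0. H1f5 (H1.5), at 11.86 and 11.88 in the wildtype and impaired samples, was the brightest. H1f1 (H1.1) was at 11.30 and 11.50, a difference of 0.19. H1f2 (H1.2) was at 11.51 and 11.35, and H1f3 (H1.3) at 7.67 and 7.46. H1f6, the testis linker histone, was at 5.54 and 5.61, below the median probe set on both arrays, and a floor at that level, which leaves it out, turned the H1 median to -0.07. H1f4 (H1.4) had no probe set of its own. A probe set shared with H2bc6 was at 9.62 and 9.71.

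Core histone H2A was represented by 5 genes with a median difference of 0.04. H2ac15 was at 13.53 in wildtype and 13.57 in the impaired sample, and H2aw, the H2A gene of the small Hist3 cluster, at 12.65 and 12.52. H2ac4 had the largest difference of the class, 0.36, from 10.46 to 10.82. H2ac1, the testis form TH2A, was at 8.94 and 9.02 on the same arrays. The last member, H2ac8, was the dimmest histone gene and differed by -0.02.

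H2B had the most members. Of 11 genes, 9 were above 0, 1 was below and 1 was at 0, and the median was 0.08. Among all genes 51.5% were above 0, and the H2B count was not tested. H2bc4 was at 8.49 in wildtype and 9.23 in the impaired sample, a difference of 0.75 (1.68-fold). It was the largest of the 31, and 410 of the 19937 genes had a larger one. Within H2B, next came H2bc9, at 11.58 and 11.98 (0.40), and H2bc14, at 12.50 and 12.84 (0.35). The pseudogene H2bu1-ps was at 9.11 and 9.44 (0.34). H2bc1, the testis form TH2B, was at 7.54 and 7.79 (0.26).

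The remaining H2B genes were nearly level or went the other way. H2bc8 was at 9.85 in wildtype and 9.61 in the impaired sample, the lowest difference of any member (-0.24). H2bc3 was at 12.23 on both arrays and H2bc22 at 7.42 on both. H2bc18 differed by 0.08, H2bu2 by 0.08 and H2bc21, the H2BE form known from olfactory neurons, by 0.05. H2bc21 was dim on both arrays, at 6.46 and 6.51.

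H2bc4 belongs to a short list of members known from other work to be made with a poly(A) tail as well. Of its 4 genes, 3 were measured: besides H2bc4 these were H1f2 (-0.16) and H2bc21 (0.05). H2ac6, the back-to-back partner of H2bc4, had no probe set of its own. The list thus held 1 difference past 1.5-fold, 1 value near 0 and 1 below it. Enterocyte, goblet and neutrophil markers were brighter in the same sample as H2bc4, and their part in its difference was not tested. Without H2bc4 the other 30 members had a median of 0.05 and a highest difference of 0.51.

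H3 genes with a probe set of their own were few and dim, and said little about the class. H3c15 was at 6.37 in wildtype and 6.88 in the impaired sample, a difference of 0.51. H3c4 was at 6.82 and 6.68, and H3c7 at 6.24 and 6.07. All 3 lay below 6.91 on both arrays. RMA leaves part of the background in dim probe sets, and the difference of H3c15 was 0.39 with an offset of 32 on the linear scale and 0.41 after intensity-dependent centring.

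H4 was measured by 7 genes, 6 of them above 0, with a median of 0.03. Among all genes 51.5% were above 0, and the H4 count was not tested. H4c4, the brightest histone gene, differed by 0.10. H4c14 was at 12.66 on both arrays, and H4c6 at 12.39 and 12.40. H4c3 was at 10.54 in wildtype and 10.85 in the impaired sample (0.32). H4f16, the isolated H4 gene of Hist4, was at 10.67 and 10.88 (0.21). H4c9 went the other way, at 8.67 and 8.50. H4c8 was dim, at 7.04 in the impaired sample, and differed by 0.03.

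Probe sets shared by several histone genes were brighter than most members and differed as little. Of the 21, 16 were among the brightest 5% by the same level. Their median difference was 0.08, with 18 above 0, 3 below and 17 within 0.2 of 0. Of all genes 51.5% were above 0 and 62% within 0.2 of 0. Of the 391 genes with a mean of at least 12, 37.3% were above 0. These counts were not tested, and the shared probe sets list many of the same genes. For H3 they gave a fuller picture than the single genes. The brightest of 9 H3 probe sets was at 14.32 on both arrays, 8 of 9 were above 0, and the median was 0.13, while the dimmest, at 6.49 and 6.14, was the lowest of all 21 (-0.34).

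The 6 shared H2B probe sets had a median of 0.15. One of them was at 11.94 in wildtype and 12.57 in the impaired sample (0.63), the only shared probe set past 1.5-fold. The 5 H4 probe sets had a median of 0.04 and a highest difference of 0.47, at 9.15 and 9.62. Each of these probe sets lists 2 to 15 genes, so a difference cannot be given to 1 copy. With shared probe sets added, the H3 median moved from -0.15 over 3 genes to 0.087.

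**Figure D3:**
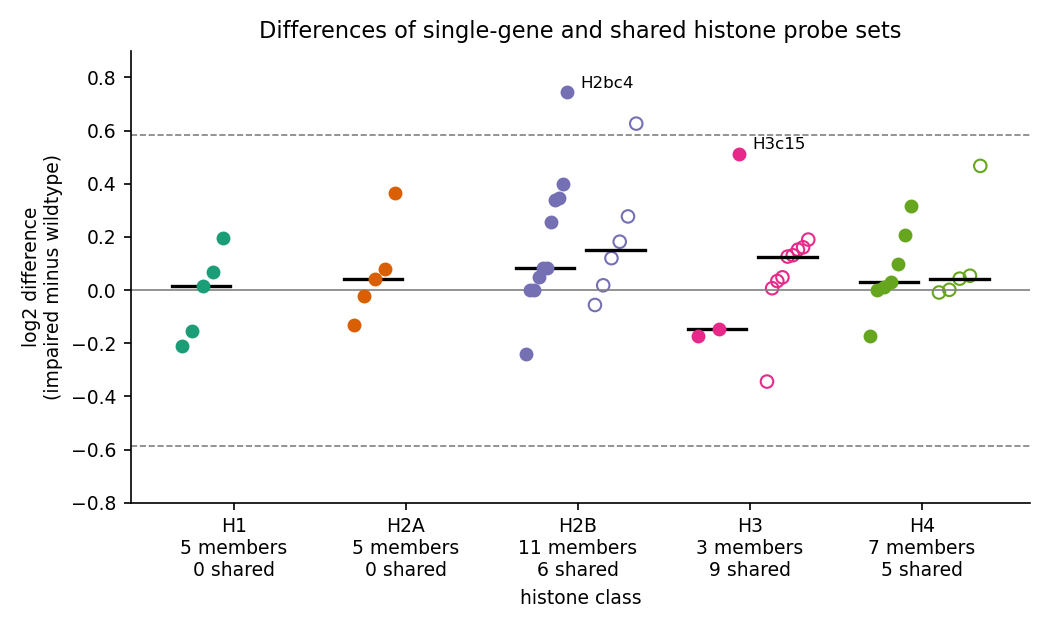
Log2 difference (impaired minus wildtype, vertical axis) of histone probe sets by class; filled points are the 31 members, open points the 20 probe sets shared within 1 class, black bars the medians, and dashed lines mark 1.5-fold. H2bc4 and 1 shared H2B probe set lie past the upper line, and none lies past the lower one.

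The brightest histone genes differed little. The 2 members at or above 13, H2ac15 and H4c4, differed by 0.04 and 0.10. Among the 7 with a mean of at least 12 the differences ran from -0.13 to 0.35 with a median of 0.01, and the 391 genes of the whole array at that level ran from -0.44 to 0.89 with a median of -0.04. Across all 31 members the level and the absolute difference had a Spearman rho of -0.042.

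Most members, 23, lie in the Hist1 cluster on chromosome 13. Their median was 0.03, with 15 above 0 and 7 below. Among all genes 51.5% were above 0, and the counts by cluster were not tested. All 4 members of Hist2 were above 0, from 0.002 (H4c14) to 0.51 (H3c15), the 3 of Hist3 had a median of 0.08, and H4f16 stands alone. The nearest members on either side of H2bc4 were H4c4, at 14.09 in the wildtype sample, and H1f6, at 5.54. They differed by 0.10 and 0.07, and genes without a probe set of their own were left out of this order. In the back-to-back pair H2ac8 and H2bc8 the values were 5.29 and 9.85 in the wildtype sample, with differences of -0.02 and -0.24.

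**Figure D4:**
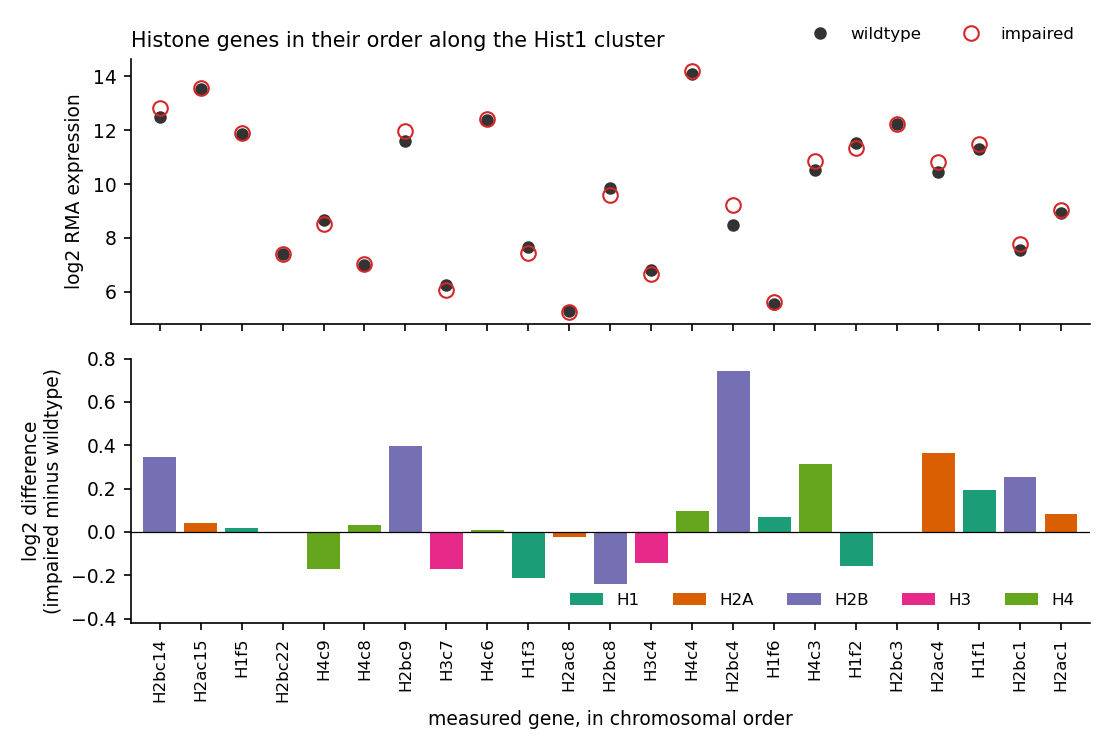
The 23 members of the Hist1 cluster in their RefSeq order along the chromosome (horizontal axis, not to scale); the upper panel gives the level on each array (log2 RMA expression) and the lower panel the log2 difference, coloured by class. In the wildtype sample H4c4 and H1f6, the nearest members on either side of H2bc4, stand at 14.09 and 5.54, and H2bc4 has the tallest bar, 0.75.

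Other genes of the histone pathway, from lists that are not part of the histone rule, had medians slightly below 0. Replication-independent variants, most of whose mRNAs carry a poly(A) tail and are made outside S phase too, had a median of -0.10 over 9 genes. Of these, 2 were above 0 and 7 below. Among all genes 47.6% were below 0, and the count of variants was not tested. H2ax, which marks DNA breaks, was at 9.65 and 9.52, H2az1 at 11.96 and 11.84, and Cenpa, the centromeric H3, at 10.52 and 10.32. H1f10, a linker variant, went the other way (0.26).

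Of all genes 47.6% were below 0, and of the 5618 with a mean of at least 8.86, the 75th percentile of probe sets, 59.8% were; the counts for factors that transcribe and process histone mRNA stand beside these shares. Npat, the cyclin E-CDK2 target that switches on histone genes, was at 9.62 in wildtype and 9.08 in the impaired sample (-0.54). That was the lowest of 10 transcription genes, with 4 above 0, 6 below and a median of -0.05. No floor was applied to this list, and with a floor at 8.86 its median was -0.20. Casp8ap2, which encodes FLASH, a partner of NPAT, differed by -0.32. Slbp itself was at 10.25 and 10.17 (-0.08). Of the 21 processing and turnover genes 18 were below 0 and 3 above, with a median of -0.11. The largest differences there were those of Ncbp2, a cap-binding subunit (-0.50), Zfp473, a zinc finger protein of the U7 complex (-0.40), Snrpe, an Sm protein (-0.36), and Lsm10, a U7-specific ring protein (-0.33).

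Histone chaperones had a median of -0.08 over 21 genes, 15 of them below 0. Among all genes 47.6% were below 0, as were 59.8% of those with a mean of at least 8.86. The chaperone count was not tested. Asf1a, which hands H3-H4 to assembly factors, was at 8.47 and 7.91 (-0.56), Nasp, which stores H3-H4, at 8.36 and 7.83 (-0.53), and Hat1, which acetylates new H4, at 10.96 and 10.46 (-0.50). DNA replication genes had a median of -0.06 over 29 genes, 11 above 0 and 18 below. No floor was applied to this list, whereas the 59.8% holds for brighter genes only. With a floor at 8.86 the median of the list was also -0.06. Mki67, a proliferation marker, was at 12.07 in the impaired sample and differed by 0.07. Pcna, the polymerase clamp, was at 13.15 and 12.99. Cdt1, which licenses origins, was the only gene of these 5 lists past 1.5-fold (0.61), and Cdc6, its partner, was at -0.46.

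The number past 2-fold was 0 in each of these 5 lists, and after intensity-dependent centring their medians lay between -0.07 and -0.01. Several have members in common, and bright genes as a whole lay below 0: over the 5618 genes with a mean of at least 8.86 the median was -0.05. The histone genes, with a median of 0.08 at that level, and these lists were not compared by a test. Olfactory receptor genes, whose coding regions lack introns as those of histone genes do but which T cells are not known to use, had a median of -0.28 over 1027 genes, with 909 below 0. Their wildtype median was 5.95, which is dim for this array. After intensity-dependent centring their median was -0.30, so they do not stand for dim genes in general.

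**Figure D5:**
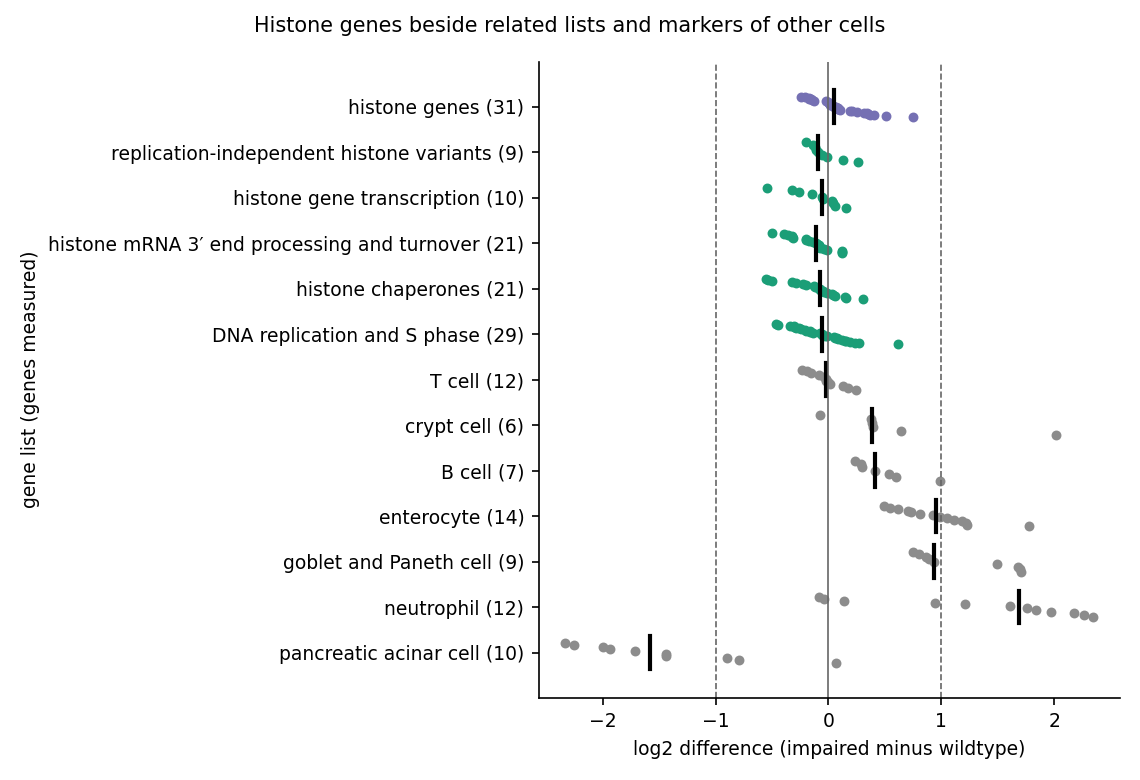
Log2 difference (impaired minus wildtype, horizontal axis) of each gene in the histone set, in 5 lists of related genes (green) and in 7 marker lists of T cells and other cells (grey); black bars are medians and dashed lines mark 2-fold. Histone genes (median 0.05) and the 5 related lists (medians from -0.11 to -0.05) stay inside the dashed lines, while neutrophil and acinar markers reach past them in opposite directions.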

How the data were processed

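The deposited table holds log2 expression values for 34760 probe sets on 2 arrays, made by the authors with affy and RMA per the submitters' processing notes (background correction, quantile normalization and summary per probe set); versions and build: not given in the sources used here. Scanner files were not used here. Probe sets were named through the platform annotation: 21640 had 1 symbol, 1321 several and 11799 none. A gene with several probe sets (954 of 19937) took the brightest by the mean of both arrays. Former names came from RefSeq synonyms (GRCm38.p6). No floor was applied to levels. With 1 array per group there is no replicate error, so precision is limited by the number of arrays, and genes were counted by size (2-fold and 1.5-fold). Alternatives were loess centring (fraction 0.3), an offset of 32, the mean of probe sets, floors at 6.91 and 8.86, and shared probe sets added. Named genes were members of the histone rule, up to 4 genes per list with the largest absolute difference, and a few fixed names. The members and lists were chosen with earlier results of these data known, so none is independent support. The functions were tested on simulated data. Python 3.11.15, numpy 2.4.6, pandas 2.3.3, scipy 1.17.1, statsmodels 0.14.6 and matplotlib 3.10.9 were used.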

Additional observations from a re-analysis of the deposited data

How the results depend on the processing

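The median of the histone genes stayed between 0.04 (offset) and 0.08 (floors) in all 6 alternatives, and the number past 2-fold stayed 0. A median was taken to have moved when it shifted by 0.1 or more. With the floor at 8.86 (18 members), the number 1.5-fold higher was 0, 3 were below 0, and medians were 0.21 for H2B, -0.20 for transcription genes, -0.16 for the tailed list (H1f2 alone), 0.60 for B cell, -0.035 for plasma cell, -1.71 for acinar, 2.01 for crypt (Olfm4 alone) and -0.0055 for olfactory receptor genes. With the floor at 6.91 (25 members), 5 were below 0, and medians were 0.30 for the tailed list, 1.90 for neutrophil, 0.79 for B cell, 0.36 for plasma cell and 0.52 for crypt genes. These floors leave fewer genes. The offset gave 1.44 for neutrophil, -1.46 for acinar and -0.17 for olfactory receptor genes, and loess centring 0.31 for B cell genes. With shared probe sets added (52 in all), 40 were above 0, 2 were 1.5-fold higher and the H3 median was 0.087. The mean of probe sets moved none of 33 results. No paired analysis was possible because each group has 1 sample.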
